A study of Arabidopsis thaliana with 12 samples.

Results

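The 4 libraries described here compare Arabidopsis thaliana root tips that were never wounded, kept for 14 h on plates with or without CNQX. They were chosen by their titles, as the uncut samples among 12 libraries of the series, with 2 mock and 2 CNQX libraries. All seedlings were of the Col-0 genotype and 7 days after sowing, and the drug was given at 50 µM. About 100 µm of the uncut tip was collected from each set of roots. The other 8 libraries, 1 per treatment and time, came from roots whose tips had been excised after 1 h on CNQX or mock plates. Those roots were sampled 0.5, 4, 14 and 24 h after about 130 µm had been removed. The uncut roots therefore met the drug for longer than the 1 h given before excision, and without a wound. Whether the replicates came from separate plantings is not in the labels, so their spread may be technical. The p-values measure no more than that spread and the spread of CNQX effects over the times after cutting. The fit held all 12 libraries.

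CNQX blocks ionotropic glutamate receptors of animal neurons by competing with glutamate at its binding site. Plants carry related proteins, the GLUTAMATE RECEPTOR-LIKE (GLR) channels, which pass calcium and other cations when amino acids bind. In Arabidopsis they are known for long-distance electrical and calcium signals after wounding, for defence, and for roles in root growth. The uncut libraries compare the transcripts of root tips with and without the drug in the absence of an injury.

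Counts in annotated loci ran from 1575446 (CNQX library 1) to 3302325 (mock library 1). Levels are in CPM, a gene's counts scaled to the library's effective size, which is its total over the genes tested times its TMM factor. A count of 3, taken as the floor of detection, was worth 0.875 to 1.91 CPM in the 4 libraries; this floor, like the intervals of counts, holds counting error and nothing else. The tissue label held against marker lists. The SCARECROW transcription factor of the ground tissue, SCR, was at 72.1 and 97.1 CPM in mock and at 52.8 and 99.1 CPM in CNQX tips. By contrast, 14 photosynthesis genes summed to 14.6 to 21.6 CPM per library and 15 genes of the Casparian strip and suberin to 10.2 to 17.38 CPM. In the latter list 7 genes (CASP2, CASP5, GPAT5, CYP86A1, CYP86B1, FAR4 and FAR1) were at 0 counts in all 4 libraries. Mitochondrial transcripts took 10.4% and 16.9% of counts in mock libraries 1 and 2, and 8.13% and 16.9% in CNQX libraries 1 and 2.

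No gene passed the threshold. With edgeR's quasi-likelihood test over 16820 genes, 0 genes had an adjusted p under 0.05 in either direction (0% of genes), and the lowest adjusted p was 0.978. At an unadjusted p under 0.05 there were 629 genes, of which 412 were higher with CNQX (2.45% of genes tested) and 217 lower (1.29%). DESeq2 also called 0 genes, with 481 at an unadjusted p under 0.05, and limma-voom called 0, with 636. The median standard error of a log2 fold change was 0.57 over all genes. It was 0.43 among genes with a mean log2 CPM over all 12 libraries of at least 5. The standard error is not a limit of detection, and with 2 libraries per treatment changes well above it also went uncalled. AT2G02680, at a log2 fold change of 2.29 ± 0.48, had an adjusted p of 0.978 in this quasi-likelihood test. The lack of called genes therefore does not show that transcripts were unchanged. In 2391 genes (14.2%) both CNQX libraries lay above both mock libraries, and in 2609 (15.5%) both lay below. These shares are the background for the counts of gene lists given here, but they differ with transcript length, as the next values show, so that lists of short or long genes have another background.

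The largest pattern across genes followed transcript length. Genes were put into 5 equal bins by exonic length, the sum of a gene's exons. The bin of shortest genes, up to 1204 bases, had a median log2 fold change of 0.40, and that of the longest genes, from 2603 bases, had -0.25. Between them the medians went from 0.16 through 0.04 to -0.09. Among the shortest genes, 20.14% of genes had both CNQX libraries above both mock libraries and 4.96% had both below. Among the longest genes these shares were 6.50% and 29.2%. Across 16086 genes, Spearman's rho of exonic length with the log2 fold change was -0.34, a description across genes that share the same 4 libraries. The GC content of exons went with it in the same direction, with a median of 0.46 in the bin of lowest GC and -0.20 in the bin of highest GC.

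The trend was uneven among the libraries. The shortest genes took 24.0% and 19.2% of these genes' counts in mock libraries 1 and 2, and 33.0% and 21.9% in CNQX libraries 1 and 2. CNQX library 1 therefore stood above the other 3 in short transcripts. CNQX library 2 against mock library 1 had medians of -0.09 for the shortest and 0.00 for the longest genes, so that this pair showed no rise toward short genes. Drug and library cannot be told apart here, and the part of the trend in any single gene was not tested. Removing the trend over length and GC reduced the SD of log2 fold changes from 0.53 to 0.43 among 5419 genes. These had a mean log2 CPM over all 12 libraries of at least 5. List medians are therefore given as fitted and again after removing this trend. Log2 fold changes of single genes are as fitted, and for short genes the trend can be a large part of the value.

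**Figure D1:**
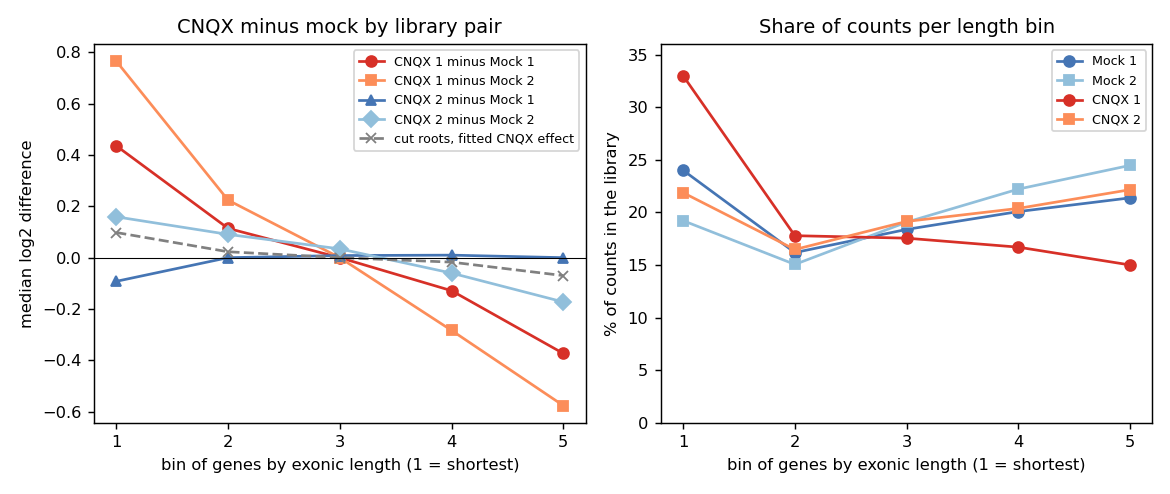
Left, the median log2 difference between single CNQX and mock libraries in each of 5 bins of genes by exonic length, with the fitted effect in cut roots as a dashed line; right, the percent of each library's counts in these bins. CNQX library 1 holds 33.0% of counts in the shortest bin, against 19.2% to 24.0% in the other 3 libraries, and the line of CNQX library 2 minus mock library 1 stays between -0.09 and 0.01.

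The 12 genes with the lowest p among those whose CNQX libraries both lay above mock included 2 calcium sensors, receptor-type genes and stress genes. The calcium sensor SOS3 (AT5G24270), which activates the kinase of the salt tolerance pathway, was at 7.00 and 3.83 CPM in mock tips. It was at 22.9 and 21.1 CPM with CNQX, a log2 fold change of 1.98 ± 0.46 (SE). The calmodulin-like CML9 (AT3G51920), another calcium-binding protein of stress signalling, stood at 8.46 and 7.24 CPM in mock and at 21.6 and 33.8 CPM with CNQX, a log2 fold change of 1.81 ± 0.46. In both genes the groups did not overlap, which the choice of genes fixed, and neither passed the adjustment over all genes. The trend for genes of their length and GC was 0.05 for SOS3 and 0.63 for CML9. In the list of calcium and touch response genes, CML9 was the only 1 of 12 tested that lay above mock (8.33%), with 0 below. Over all genes these shares were 14.2% and 15.5%. The list median of 0.24 was -0.15 without the trend. In the calmodulin-like family, 4 of 10 members tested lay above mock (40%) and 0 below. Their median exonic length was 995 bases, and in the bin of shortest genes 20.14% lay above and 4.96% below. The family median of 0.59 was 0.07 without the trend.

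Among receptor-type genes, the cysteine-rich receptor-like kinase CRK27 (AT4G21230) had 2 and 1 counts in mock and 8 and 17 counts with CNQX. Its CPM were 13.0-fold higher with CNQX, with a counting interval of 3.96 to 67.2. The nucleotide-binding leucine-rich repeat gene AT1G53350, annotated as a disease resistance protein, was at 2.92 and 2.55 CPM in mock and 11.4 and 18.3 CPM with CNQX. Its log2 fold change was 2.42 ± 0.63. These are low levels in every library, at 6 to 39 counts for AT1G53350.

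Stress-responsive genes in the same group were FBS3, KIN1 and TAT3. The F-box gene FBS3 (AT4G05010), of a small family induced by stress, was at 12 and 9.79 CPM in mock and 32.4 and 34.8 CPM with CNQX. Its log2 fold change of 1.62 ± 0.39 compares with a trend of 0.58 for genes of its length and GC. The cold- and abscisic acid-responsive KIN1 (AT5G15960) had 0 counts in both mock libraries and 2 and 9 with CNQX. Against a floor of 3 counts over the mock group it was at least 5.72-fold higher, and reads shared with its close paralog KIN2 make the count uncertain. The jasmonate-inducible tyrosine aminotransferase TAT3 (AT2G24850) had 1 and 0 counts in mock against 2 and 13 with CNQX, a CPM ratio of 23.4 (counting interval 3.6 to 984). Most of its counts came from CNQX library 2; without that library the log2 fold change went from 4.12 to 2.52.

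The remaining genes of this group had less related roles. AT2G02680, a cysteine- and histidine-rich C1 domain protein, had the lowest p of the group and was at 4.38 and 6.81 CPM in mock and 23.5 and 30.5 CPM with CNQX, a log2 fold change of 2.29 ± 0.48. The glycosyltransferase AT4G16710 had a log2 fold change of 1.68 ± 0.43, and the sugar transporter-like AT3G05165 of 2.03 ± 0.55. CRR28 (AT1G59720), a pentatricopeptide repeat protein for RNA editing in chloroplasts, had a log2 fold change of 2.42 ± 0.64, at 1.46 and 1.70 CPM in mock and 8.27 and 8.92 CPM with CNQX. The long non-coding RNA AT2G09250 was at 33.5 and 24.7 CPM in mock but at 299 and 44.1 CPM in the CNQX libraries. It is annotated within the gene of the cytokinin response regulator ARR8, on the other strand. It rested on CNQX library 1, as its log2 fold change of 2.55 ± 0.67 became 0.59 without it.

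The 12 genes with the lowest p among those lower with CNQX held metabolic enzymes and genes of the cell wall and membranes. The trehalose-6-phosphate synthase TPS1 (AT1G78580), whose product signals sugar status, was at 32.1 and 45.1 CPM in mock. It was at 14.0 and 10.8 CPM with CNQX, a log2 fold change of -1.64 ± 0.46. The threonine aldolase THA2 (AT3G04520), which cleaves threonine to glycine, stood at 65.1 and 86.4 CPM in mock and 24.2 and 25.8 CPM with CNQX (log2 fold change -1.59 ± 0.45). Both genes had 22 to 55 counts per CNQX library and 106 to 223 per mock library. That their groups did not overlap was fixed by the choice of genes.

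Membrane and signalling genes followed. The bile acid-sodium symporter family gene AT1G78560 had a log2 fold change of -1.45 ± 0.43, at 42.0 and 60.9 CPM in mock and 15.3 and 22.1 CPM with CNQX. ECIP1 (AT4G24800), named for its binding to the ethylene pathway protein EIN2, was at 70.3 and 61.3 CPM in mock and at 20.4 and 30.5 CPM with CNQX (log2 fold change -1.36 ± 0.42). AT5G15070, of the histidine acid phosphatase and phosphoglycerate mutase superfamily, had a log2 fold change of -1.55 ± 0.50. The tetratricopeptide repeat protein AT4G28080 had a log2 fold change of -2.20 ± 0.69 with 3 and 9 counts with CNQX. Mfl1 (AT5G42130), a mitoferrin-like iron carrier of the chloroplast, had 51 and 58 counts in mock and 9 in each CNQX library (log2 fold change -1.99 ± 0.66).

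The splicing factor gene SUS2 (AT1G80070), encoding the spliceosome core protein PRP8, was by far the highest in level of the 24 leading genes. It was at 504 and 505 CPM in mock and at 254 and 233 CPM with CNQX, so that replicates agreed closely. Its log2 fold change of -1.05 ± 0.35 is that of a transcript of 7522 bases, and the trend over length and GC alone was -0.60 for a gene like it. Cell wall and cell surface genes in the group were at low counts. The expansin EXPA10 (AT1G26770), which loosens walls, had 15 and 5 counts in mock and 1 and 0 with CNQX, a CPM ratio of 12.8 (counting interval 2.05 to 532). The xylan acetylation gene ESK1 (AT3G55990) had 11 and 16 counts in mock and 0 and 1 with CNQX, a ratio of 17.3 (2.85 to 709). The zinc transporter gene ZIP3 (AT2G32270) had 7 and 5 counts in mock and 0 with CNQX, at least 2.57-fold lower against the floor. PDLP7 (AT5G37660), a protein at plasmodesmata, had 27 and 11 counts in mock and 3 and 1 with CNQX.

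**Figure D2:**
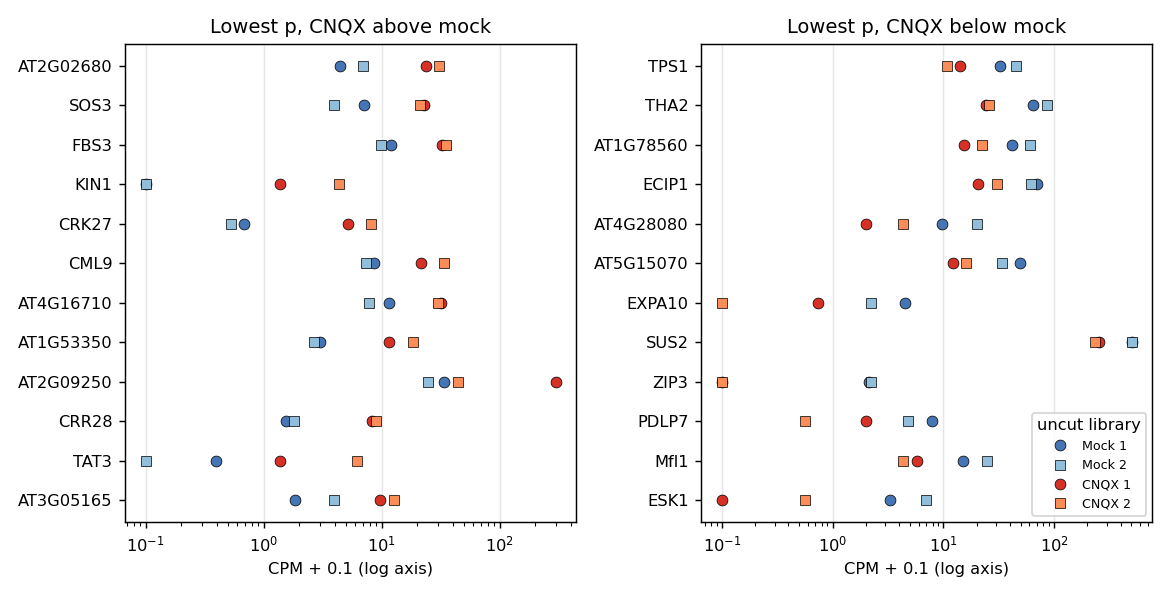
CPM plus 0.1 on a log axis in each of the 4 uncut libraries for the 12 genes of lowest p above mock (left) and below mock (right); each point is 1 library. The mock and CNQX points do not overlap for any gene, which the choice of genes fixed, and SUS2, at 504 and 505 CPM in mock against 254 and 233 CPM with CNQX, is the highest in level.

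The GLR channels, plant relatives of the drug's animal targets, gave no change that could be told from the spread. Of 20 GLR genes, 5 passed the filter on low counts, and 5 (GLR2.2, GLR2.3, GLR2.6, GLR2.8 and GLR2.9) were at 0 in all 4 libraries. GLR3.3 (AT1G42540), which carries wound signals between leaves together with GLR3.6, was the highest in CPM and stood at 22.8 and 26.8 CPM in mock and 12.7 and 22.5 CPM with CNQX. Its log2 fold change was -0.48 ± 0.44, with a 95% interval of -1.42 to 0.47. GLR3.6 (AT3G51480) was at 12 and 12.8 CPM in mock and 8.27 and 11.7 CPM with CNQX, a log2 fold change of -0.30 with an interval of -1.76 to 1.17. GLR3.7 was at 17.5 and 12.3 CPM in mock and 12.7 and 14.1 CPM with CNQX, an interval of -1.25 to 0.93.

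The remaining members were lower and more scattered. GLR3.5 was at 7.29 and 11.5 CPM in mock and at 5.73 and 19.7 CPM with CNQX, so that the CNQX libraries enclosed the mock ones, and its log2 fold change of 0.48 became -0.74 without CNQX library 2. GLR2.1 was at 7.59 and 6.39 CPM in mock and at 3.82 and 8.92 CPM with CNQX; its log2 fold change of -0.11 became 0.34 without CNQX library 1. GLR3.7 went from -0.16 to 0.09 without mock library 1. The median of the 5 genes was -0.16 as fitted and 0.07 after removing the length and GC trend, and the signs of GLR3.6, GLR3.7 and GLR2.1 turned with that correction. The bounds of these intervals are not a limit of detection. Changes within them are not excluded, and larger ones could also have gone uncalled after adjustment over all genes.

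Genes of glutamate and nitrogen metabolism likewise had none past the threshold among 28 tested. Both CNQX libraries lay above mock in 2 of them (7.14%) and below in 5 (17.9%), against 14.2% and 15.5% over all genes. The median log2 fold change was -0.17 as fitted and -0.03 without the trend. The nitrate reductase gene NIA2 (AT1G37130) was at 27.7 and 26.0 CPM in mock and at 15.3 and 8.92 CPM with CNQX, a log2 fold change of -1.16 ± 0.63. P5CS1 (AT2G39800), the enzyme that starts proline synthesis from glutamate, had a log2 fold change of -0.57 ± 0.40. The nitrate transceptor NRT1.1 (AT1G12110) had 1 and 6 counts in mock and 8 and 11 with CNQX.

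Defence lists lay more often above mock than the background of 14.2%, without any member past the threshold. Of 12 salicylic acid genes tested, 5 (41.7%) lay above mock in both CNQX libraries and 0 below; of 18 genes of pattern-triggered immunity, 6 (33.3%) lay above and 2 (11.1%) below. Their medians were 0.25 and 0.43 as fitted and 0.39 and 0.43 without the trend, against 0.05 and -0.01 for all genes; no test was made of any list as a whole. The salicylic acid receptor NPR4 (AT4G19660) was at 11.1 and 5.96 CPM in mock and at 14.0 and 47.0 CPM with CNQX, a log2 fold change of 1.83 ± 0.63. The other receptor of this kind, NPR3 (AT5G45110), was at 16.3 and 5.96 CPM in mock and 22.3 and 25.8 CPM with CNQX. The separation of NPR4 was narrow in CNQX library 1. PR1, PR2 and PR5, the usual markers of an active salicylic acid response, were at 0 counts in all 4 libraries.

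Within the immunity list, the transcription factor WRKY33 (AT2G38470), which controls camalexin synthesis, was at 8.75 and 17.5 CPM in mock and 33.7 and 40.9 CPM with CNQX. Its log2 fold change was 1.52 ± 0.50. The chitin receptor CERK1 (AT3G21630) was at 15.2 and 15.8 CPM in mock and 22.9 and 41.8 CPM with CNQX (1.07 ± 0.45), and the NADPH oxidase gene RBOHF (AT1G64060) had a log2 fold change of 1.13 ± 0.53. The flagellin receptor gene FLS2 and the marker gene NHL10 were at 0 counts throughout. In the indole glucosinolate and camalexin list, 4 of 13 genes lay above mock (30.8%) and 1 below (7.69%), against 14.2% and 15.5% over all genes. The list median was 0.52 as fitted and 0.50 without the trend. CYP71A12 (AT2G30750), of camalexin and indole carbonyl nitrile synthesis, had 4 counts in each mock library and 10 and 15 with CNQX. CYP83B1 (AT4G31500) of the indole glucosinolate pathway was at 47.8 and 28.9 CPM in mock and 73.8 and 59.6 CPM with CNQX (log2 fold change 0.79 ± 0.39). CYP79B2, which makes the oxime that precedes it, was at 9.04 and 1.70 CPM in mock and 22.9 and 14.1 CPM with CNQX.

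The WRKY family as a whole, 72 defence- and stress-linked transcription factors of which 48 were tested, had 10 members above mock (20.8%) and 4 below (8.33%). Its median was 0.44 as fitted and 0.35 without the trend. WRKY60 had 2 and 1 counts in mock and 5 and 4 with CNQX, a CPM ratio of 4.68 (counting interval 1.17 to 26.9). Of 12 cysteine-rich receptor-like kinases tested, 3 lay above mock (25%) and 1 below (8.33%), against 14.2% and 15.5% over all genes. CRK28 had 10 and 2 counts in mock and 5 and 31 with CNQX. CRK2 had 2 and 6 counts in mock and 0 in both CNQX libraries, at least 1.71-fold lower. The family thus had leading members in both directions, all at low counts.

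Several of the highest values among jasmonate and abscisic acid genes rested on 1 library. In the jasmonate list 5 of 20 genes lay above mock (25%) and 1 below (5%), against 14.2% and 15.5% over all genes. The list median was 0.53 as fitted and 0.41 without the trend. CYP94B3 (AT3G48520), which inactivates jasmonoyl-isoleucine and is induced by it, had 14 counts in CNQX library 2 and 0 in the other 3 libraries. The repressor gene JAZ9 (AT1G70700) likewise had 7 counts in CNQX library 2 and 0 elsewhere. CYP94B3 was at least 7.28-fold higher with CNQX against the floor, and at 0 in all libraries left without CNQX library 2. The abscisic acid and cold gene RD29A (AT5G52310) had 0 and 5 counts in mock and 0 and 40 with CNQX, so that the direction turned without that library. The phosphatase gene ABI2 (AT5G57050), a brake on abscisic acid signalling, was in the other direction at 6.13 and 14.0 CPM in mock and 1.91 and 3.29 CPM with CNQX (-1.89 ± 0.80). VSP1, VSP2 and LOX2, strongly jasmonate-induced in shoots, were at 0.

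**Figure D3:**
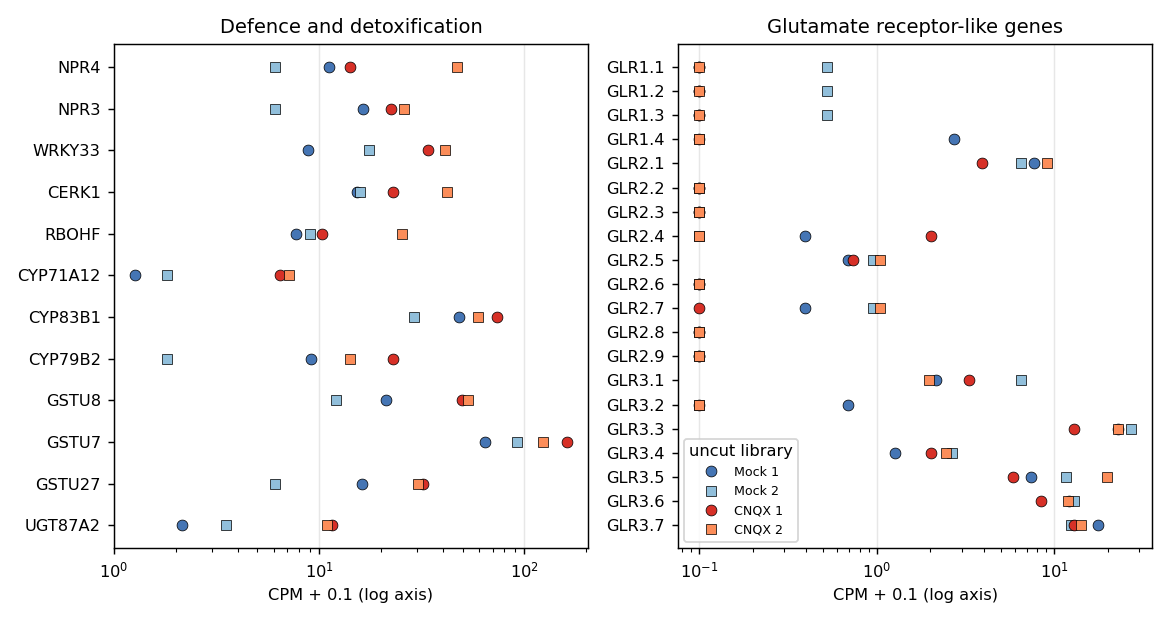
CPM plus 0.1 on a log axis in each uncut library for 12 genes of defence and detoxification (left) and for all 20 GLR genes (right); each point is 1 library. The genes on the left were picked from the named genes, and all have both CNQX points to the right of both mock points. The choice of genes fixed this separation, and no gene passed the threshold. ABCC3 of the detoxification list, whose groups overlap, is not shown. The right panel was not picked in this way, and in GLR3.5 the CNQX points at 5.73 and 19.7 CPM enclose the mock points at 7.29 and 11.5 CPM.

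Detoxification genes were also more often above mock than the background. Of 24 genes of xenobiotic detoxification tested, 8 (33.3%) lay above mock and 0 below, with a median log2 fold change of 0.47 that was 0.27 without the trend. In the bin of genes from 1205 to 1608 bases, which holds their median length of 1534, 18.0% lay above and 9.75% below. The list shares members with the tau class that follows, among them GSTU8 and GSTU7, so the counts of these sets are not separate. Tau-class glutathione transferases, which attach glutathione to foreign compounds, had 8 of 24 members above (33.3%) and 1 below (4.17%). Their transcripts are short, and in the bin of shortest genes 20.14% lay above and 4.96% below. The median of the family, 0.78 as fitted, was 0.32 without the trend. GSTU8 (AT3G09270) was at 21.0 and 11.9 CPM in mock and 49.6 and 53.1 CPM with CNQX, a log2 fold change of 1.63 ± 0.47. GSTU7 (AT2G29420) was at 64.2 and 92.4 CPM in mock and 161 and 123 CPM with CNQX (0.86 ± 0.38), and GSTU27 (AT3G43800) had a log2 fold change of 1.46 ± 0.54. In these 3 genes the groups did not overlap. The trend for genes of their length and GC was 0.52 for GSTU8, 0.57 for GSTU7 and 0.62 for GSTU27.

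Other enzymes of this kind gave a mixed picture. Of 8 phi-class glutathione transferases tested, 3 lay above mock (37.5%) and 0 below. Their median exonic length was 1199.5 bases, within the bin of shortest genes, where 20.14% lay above and 4.96% below. GSTF7 (AT1G02920) had 10 counts in each mock library and 17 and 18 with CNQX. The glycosyltransferase gene UGT87A2 (AT2G30140) was at 2.04 and 3.41 CPM in mock and 11.4 and 10.8 CPM with CNQX (log2 fold change 2.04 ± 0.61). Yet in its family of 46 tested members 4 lay above mock (8.70%) and 5 below (10.9%), against 14.2% and 15.5% over all genes. Cytochrome P450 genes had 16 of 99 above (16.2%) and 8 below (8.08%), and ABC transporters, which are long transcripts, 9 of 73 above (12.3%) and 16 below (21.9%), against 6.50% and 29.2% in the bin of longest genes. The thioredoxin gene TRX-H5 (AT1G45145), which acts on the salicylic acid coactivator NPR1, was at 7.00 and 3.41 CPM in mock and 19.1 and 14.6 CPM with CNQX. Its log2 fold change of 1.64 ± 0.59 compares with a trend of 0.72 for genes of its length and GC.

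**Figure D4:**
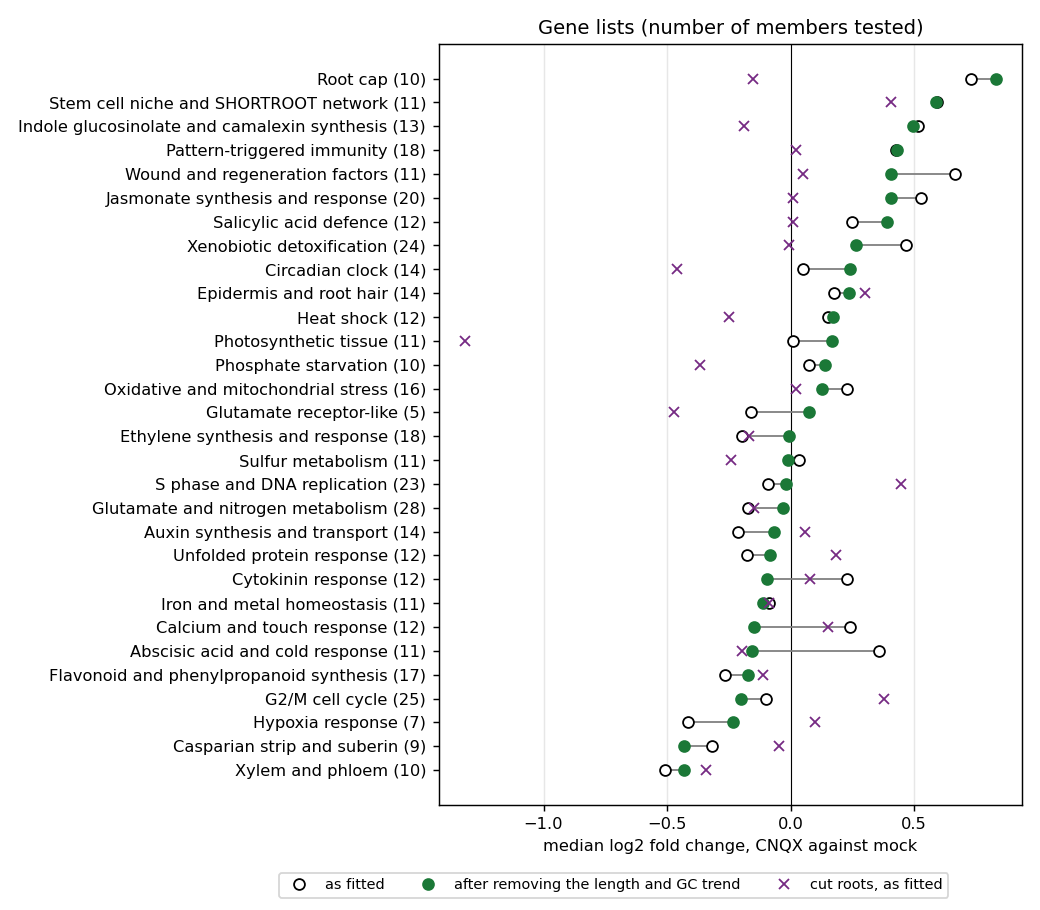
Median log2 fold change of CNQX against mock over the tested members of each gene list (number in brackets), as fitted (open), after removing the length and GC trend (green) and in cut roots (crosses). Root cap and stem cell niche lists have the highest medians after removing the trend, at 0.83 and 0.59. Other lists that stay above 0 include indole glucosinolate (0.50), immunity (0.43), wound (0.41), jasmonate (0.41), salicylic acid (0.39) and detoxification (0.27). In the wound list only 1 of 11 genes tested lay above mock in both CNQX libraries (9.09%), 1 lay below and 9 overlapped. Cytokinin response goes from 0.23 to -0.09.

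Hormone lists other than the defence hormones were divided. In the cytokinin list, ARR8 (AT2G41310), a type-A response regulator induced by cytokinin, was at 49.3 and 31.9 CPM in mock and at 270 and 57.8 CPM with CNQX (2.0 ± 0.58). The log2 fold change became 0.49 without CNQX library 1. The long non-coding RNA AT2G09250 lies within this gene on the opposite strand in the RefSeq annotation, and without a stated use of strand in counting their reads cannot be told apart. Of the 12 members of the cytokinin list tested, 2 lay above mock (16.7%) and 0 below, against 14.2% and 15.5% over all genes. Among 14 genes of auxin synthesis and transport, 1 lay above mock (7.14%) and 3 below (21.4%). In the bin of longest genes, which holds their median length of 2739 bases, 6.50% lay above and 29.2% below. The auxin efflux carrier PIN7 (AT1G23080), of the columella and stele, was at 17.2 and 29.4 CPM in mock and 7.00 and 12.2 CPM with CNQX, a log2 fold change of -1.25 ± 0.50. The auxin synthesis gene YUC3 (AT1G04610) was at 2.33 and 2.98 CPM in mock and 8.27 and 14.1 CPM with CNQX (2.07 ± 1.08).

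Auxin response genes showed both directions too. IAA1 (AT4G14560), an early auxin-induced repressor, had 6 and 2 counts in mock and 19 and 10 with CNQX, and IAA10 (AT1G04100) had 3 and 6 counts in mock and 0 with CNQX, at least 1.92-fold lower. GH3.17 (AT1G28130), which conjugates auxin to glutamate, was at 4.67 and 10.2 CPM in mock and 16.5 and 27.2 CPM with CNQX (1.59 ± 0.60). Of 18 ethylene genes 2 lay above mock (11.1%) and 5 below (27.8%). In the bin of genes from 1998 to 2602 bases, which holds their median length of 2438, 10.7% lay above and 20.7% below. The ethylene receptor gene ETR2 (AT3G23150) had 7 and 14 counts in mock and 11 and 30 with CNQX.

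Markers of the stem cell niche included 5 of 11 tested genes above mock (45.5%) and 1 below (9.09%), against 14.2% and 15.5% over all genes. In bulk tips, more cells of a type and more RNA per cell cannot be told apart. The peptide hormone gene RGF2 (AT1G13620), which maintains PLETHORA protein in the meristem, had 2 counts in each mock library and 33 and 15 with CNQX (log2 fold change 4.20 ± 1.17). RGF4 (AT3G30350), of the same peptide family, was at 7.88 and 5.11 CPM in mock and 16.5 and 14.6 CPM with CNQX. Its log2 fold change of 1.24 ± 0.95 compares with a trend of 0.65 for genes of its length and GC. The root stem cell transcription factor PLT1 (AT3G20840) was at 4.96 and 3.83 CPM in mock and 13.4 and 20.19 CPM with CNQX (1.92 ± 0.99). SHR, SCR and JKD, which pattern the ground tissue, did not separate between the treatments, and SCR was at 52.8 and 99.1 CPM with CNQX against 72.1 and 97.1 CPM in mock. The list median was 0.59 with and without the trend.

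Markers of the root cap were highest in CNQX library 2. Summed over 12 genes, the cap list was at 141 and 207 CPM in mock and 155 and 318 CPM with CNQX. Of 10 members tested, 1 lay above mock (10%) and 0 below, against 14.2% and 15.5% over all genes. The median of 0.73 as fitted and 0.83 without the trend was the highest of the gene lists. The pectinase gene RCPG (AT1G65570) was at 4.96 and 14.0 CPM in mock and at 1.91 and 67.6 CPM with CNQX, and its log2 fold change went from 1.90 to -2.31 without CNQX library 2. The cellulase gene CEL3 (AT1G71380) had 3 counts in CNQX library 1 and 14 in library 2, against 3 and 4 in mock. MC9 (AT5G04200), a metacaspase of cap cell clearance, was at 5.83 and 9.79 CPM in mock and 9.54 and 25.4 CPM with CNQX. The part of differing cap content in the values of NPR4, CYP94B3 and RD29A, also highest in CNQX library 2, was not tested. Vascular genes had 0 of 10 members above mock and 2 below, and the shoot and root polarity factor PHB (AT2G34710) was at 41.7 and 80.9 CPM in mock and 21.0 and 32.9 CPM with CNQX.

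Cell division genes lay in both directions. Of 25 G2/M genes, 4 lay above (16.0%) and 6 below (24.0%), against 14.2% and 15.5% over all genes. Their median was -0.10 as fitted and -0.20 without the trend. Of 23 S phase genes 1 lay above (4.35%) and 6 lay below (26.1%), with medians of -0.09 and -0.02. In the bin of genes from 1998 to 2602 bases, which holds their median length of 2178, 10.7% lay above and 20.7% below. The B-type cyclin gene CYCB3;1 (AT1G16330), which had the lowest p of the G2/M list, was at 7.29 and 4.26 CPM in mock and 18.4 and 7.98 CPM with CNQX (1.16 ± 0.79). The mitotic kinase gene CDKB1;2 (AT2G38620) lay above mock as well (1.05 ± 0.91). Another B-type cyclin gene, CYCB1;2 (AT5G06150) was at 44.9 and 54.1 CPM in mock and 21.6 and 37.1 CPM with CNQX (-0.74 ± 0.62). MCM4 (AT2G16440), a subunit of the replicative helicase, was at 53.4 and 106 CPM in mock and 25.4 and 42.3 CPM with CNQX (-1.23 ± 0.58). CDT1B (AT3G54710), which licenses replication origins, lay above mock at 15.9 and 25.4 CPM against 11.96 and 7.66 CPM (1.06 ± 0.79). KRP2 (AT3G50630), an inhibitor of cyclin-dependent kinases, was at 2.63 and 2.55 CPM in mock and 12.1 and 8.45 CPM with CNQX (1.95 ± 0.67). Core histone genes, with a median exonic length of 836 bases, had a median log2 fold change of 0.15 that was -0.23 without the trend. Among them HIS4 (AT2G28740) had a log2 fold change of 1.11 ± 0.47, of which the trend for its length and GC was 0.75, and reads shared among near-identical histone H4 genes make it uncertain.

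Of 12 unfolded protein response genes, which serve folding in the endoplasmic reticulum, 0 lay above mock, 4 below (33.3%) and 8 overlapped. In the bin of genes from 1998 to 2602 bases, which holds their median length of 2151, 10.7% lay above and 20.7% below. The list median was -0.18 as fitted and -0.08 without the trend. The lectin chaperone gene CNX1 (AT5G61790) was at 908 and 960 CPM in mock and 745 and 502 CPM with CNQX, and BIP2 (AT5G42020), which may share reads with its near-identical copy BIP1, had a log2 fold change of -0.53 ± 0.40. In the heat shock list 2 of 12 genes lay above mock and 3 below. The heat shock factor gene HSFA7A (AT3G51910) was at 9.04 and 4.26 CPM in mock and 18.4 and 19.3 CPM with CNQX (1.47 ± 0.58), and the cytosolic chaperone HSP70-1 (AT5G02500) had a log2 fold change of -0.44 ± 0.42.

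Nutrient genes lay in both directions. In sulfur metabolism, APR2 (AT1G62180), the main control point of sulfate reduction, was at 266 and 254 CPM in mock and 146 and 135 CPM with CNQX. Its log2 fold change of -0.89 ± 0.34 compares with a trend of -0.02 for genes of its length and GC. The sulfate uptake carrier SULTR1;2 (AT1G78000) was at 13.7 and 21.3 CPM in mock and 34.4 and 64.8 CPM with CNQX (1.52 ± 0.70). The iron storage gene FER1 (AT5G01600) was at 102 and 62.6 CPM in mock and 43.9 and 30.1 CPM with CNQX (-1.16 ± 0.52), while the uptake transporter IRT1 was at 0. The phosphate sensor SPX1 (AT5G20150) had 0 counts in mock and 3 and 5 with CNQX, at least 4.16-fold higher, and the starvation-induced phosphatase PS2 (AT1G73010) had 27 and 9 counts in mock and 4 and 2 with CNQX.

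Single genes of other lists and families separated as well. The clock gene ELF4 (AT2G40080) was at 19.3 and 13.2 CPM in mock and 33.1 and 29.1 CPM with CNQX. Its log2 fold change of 0.93 ± 0.41 compares with a trend of 0.55 for genes of its length and GC. It was the only member of 14 clock genes tested that lay above mock, with none below. The expansin EXPA4 (AT2G39700) was at 12 and 9.37 CPM in mock and 37.5 and 18.3 CPM with CNQX (1.37 ± 0.55). Of 20 expansins tested, 2 lay above mock (10%) and 6 below (30.0%), against 14.2% and 15.5% over all genes. EXPA4 and EXPA10 stood on opposite sides. Xyloglucan endotransglucosylases, which remodel wall polymers, had 0 of 24 genes separated in either direction, and PIP aquaporins 0 of 11. For the PIP genes the median log2 difference of library 1 minus library 2 was -2.56 in mock and -2.28 in CNQX tips. This spread within each treatment left little room for the groups to separate.

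The effect of CNQX in uncut tips was set against its mean effect over the 4 times after cutting, which shares no library with it. In the cut roots 0 genes passed the threshold, with 126 higher (0.749%) and 201 lower (1.2%) at an unadjusted p under 0.05. The difference between the 2 effects, tested by edgeR's quasi-likelihood test, also gave 0 genes (0%), with 285 (1.69%) and 105 (0.624%) at an unadjusted p under 0.05. Across all genes the 2 effects had a Pearson correlation of 0.05. Of the 12 leading genes above mock, the 9 with more than 3 counts in each group had log2 fold changes between 1.62 and 2.55 in uncut tips and between -0.55 and 0.22 in cut roots. For SOS3 the value in cut roots was 0.03 ± 0.29, and the difference was 1.95.

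The genes lower with CNQX were compared in the same way. The 9 with more than 3 counts in each group had log2 fold changes between -2.46 and -1.05 in uncut tips and between -0.75 and 0.22 in cut roots, where 3 of the 9 were positive. For TPS1 the value in cut roots was -0.14 ± 0.31. Since the leading genes were chosen by their values in uncut tips, smaller values elsewhere follow in part from the choice, and no adjusted p of a difference was under 1. Division genes had positive medians after cutting, 0.38 for G2/M and 0.45 for S phase genes, against -0.10 and -0.09 in uncut tips, all as fitted. For GLR3.3 the log2 fold change was -0.47 ± 0.31 in cut roots and -0.48 ± 0.44 in uncut tips.

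**Figure D5:**
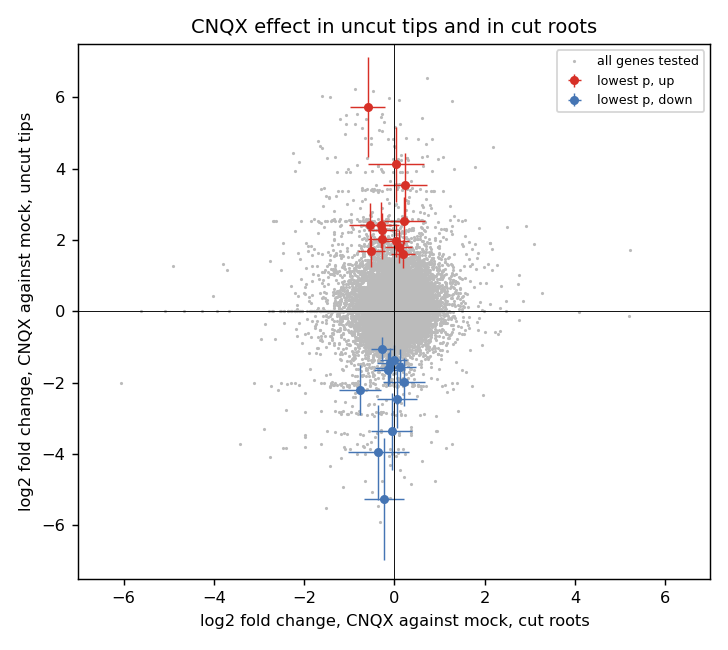
Log2 fold change of CNQX against mock in uncut tips (vertical) against the mean over 4 times in cut roots (horizontal) for all genes tested (grey) and for the 12 genes of lowest p in each direction (red and blue, bars are SE). The leading genes lie far from 0 on the vertical axis, as chosen, and between -0.75 and 0.24 on the horizontal axis.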

How the data were processed

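Libraries were made from amplified cDNA, per the labels' protocols. HISAT2 and DESeq2 are named in the submitters' processing notes, as is TAIR10; no read counter is given. Values deposited by the authors are whole-number counts for each locus, without normalization. The joint count table equals the single-sample files at all 32833 loci, and 0 of its columns went unused. In the 4 uncut libraries 13.6% to 17.8% of reads were assigned to loci, and the rows for unassigned reads stayed out of totals and tests.

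Counts were fitted with edgeR 4.0.16 in R 4.3.3: 12 libraries, TMM factors, filterByExpr with a minimum count of 10, a mean per stage and 1 CNQX term each for uncut tips and cut roots (7 coefficients, 5 residual degrees of freedom), a quasi-likelihood test, and Benjamini-Hochberg adjustment over 16820 genes at 0.05. Each time after cutting has 1 library per treatment, so the spread also draws on those times. The script was tested on simulated data. Alternatives used DESeq2 1.42.0, limma 3.58.1 and other settings. Exonic length and GC came from RefSeq TAIR10.1 by locus name.

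The leading genes are the 12 of lowest unadjusted p in each direction, since none passed the adjusted threshold. They were taken among nuclear genes whose groups do not overlap and whose mean log2 CPM over all 12 libraries is at least 2. This mean includes the cut roots. KIN1, TAT3 and ZIP3 had means of 5.08, 5.82 and 4.04, but reached no more than 4.23, 6.1 and 2.13 CPM in any uncut library. Up to 3 genes of lowest p per list or family are named as well; GLR2.1, GLR3.7, SCR, SHR, JKD and genes named as at 0 counts were added after their values were seen. Members and lists were chosen with earlier results of these data known, and the name patterns of 3 families (peroxidases, ribosomal proteins and SAUR genes) were corrected later for false matches. Replicate libraries differed by more than sampling noise. Results for 2 genes are not reported here.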

Additional observations from a re-analysis of the deposited data

How the results depend on the processing

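The count of genes past the threshold stayed at 0 in uncut tips with DESeq2, limma-voom, RLE factors, a minimum count of 20, the 4 uncut libraries alone, organelle and ribosomal RNA loci left out, the mock 24 h library left out, and a correction for length and GC chosen after seeing the data. With no filter on low counts 10 genes passed in uncut tips, all higher with CNQX, and 2 passed in the difference between uncut and cut roots. The 10 included AT2G09250 and RD29A; the cause was not tested. Leaving out 1 uncut library at a time gave 0 to 0 genes for both, while genes at an unadjusted p under 0.05 in uncut tips went from 395 without mock library 2 to 1665 without mock library 1. Replicate numbers are shared between the treatments, but the labels do not say that they mark a batch; deviations of the same-numbered libraries correlated at 0.38 over 14070 genes. A replicate block gave 0 genes with 12 libraries and 41 with the 4 uncut libraries alone (40 higher, 1 lower), of which 26 were in the shortest of the 5 length bins. With the length and GC correction as well, the block gave 14 genes (13 higher, 1 lower), 10 of them shared with the 41. Among the named genes AT2G02680, GSTU8 and RGF2 were called with the block alone, and AT2G09250, THA2 and ARR8 with the block and again with the correction added. Leaving out 1 library turned the sign of 5 genes, whose log2 fold changes then ranged from -0.91 to 0.34 (GLR2.1), -0.74 to 1.07 (GLR3.5), -4.18 to 7.47 (RD29A, fitted against groups at 0 counts), -2.31 to 2.84 (RCPG) and -0.39 to 0.085 (GLR3.7). The length and GC correction gave 0.020, 0.075 and 0.066 for GLR3.6, GLR3.7 and GLR2.1, then 0.025, 0.11 and 0.034 with the block of 12 libraries, and 0.041, 0.14 and 0.070 with the block of 4. CYP94B3 and JAZ9 gave no value without CNQX library 2, since the libraries left were at 0. Promoter motifs were not analysed here. Depth limits the low genes most, since 3 counts were worth up to 1.91 CPM.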

Other observations

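Some genes differed more between the numbered libraries of a treatment than between the treatments; these were chosen after their values were seen. The nitrate transporter gene NRT2.6 (AT3G45060) had 0 CPM in mock library 1 and in CNQX library 1, but 283 CPM in mock library 2 and 370 CPM in CNQX library 2. The water channel genes of the PIP family behaved alike as a group, since the median log2 difference of library 1 minus library 2 was -2.56 in mock and -2.28 in CNQX tips over 11 members tested. Their summed level was 564 and 539 CPM in the libraries numbered 1 and 1831 and 1479 CPM in those numbered 2. The aquaporin gene PIP1A (AT3G61430) was at 2.63 and 98.3 CPM in mock and at 5.73 and 70.9 CPM with CNQX. The source of the difference was not tested.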
